A study of Mus musculus with 2 samples.

Results

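Sarcomere and contraction genes were followed through regenerating mouse muscle: 32 genes, chosen by symbol from the 32574 genes of the count matrices. They encode the thick and thin filaments in embryonic (developmental) and adult forms, the scaffold that holds the filaments, and the enzymes and calcium proteins of the fibre. All 32 symbols were found in both matrices.

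Single-cell RNA sequencing was done on adductor muscle taken on day 7 after ligation of the femoral artery, the vessel that feeds the thigh and lower leg. Both groups had this injury, and no uninjured group was analysed here. The AIBP-KO group is Apoa1bp-/- mice, and the WT group is their control littermates. Each genotype had 4 operated mice and 1 library. Pooling, age, sex and strain of the mice are not stated in the labels used here. Naxe, the current symbol of Apoa1bp, had 0 UMIs in the kept AIBP-KO cells, which allows up to 0.0510 CPM (UMIs per 1000000 UMIs of the summed cells), against 3345 UMIs (49.9 CPM) in WT. Since a single library stands for each genotype, differences lack a replicate check, no test was made, and every ratio compares 2 libraries. All intervals are 95% intervals and cover counting error only. They are exact except those of differences of shares, which are approximate (Newcombe).

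A UMI (unique molecular identifier) marks 1 captured RNA molecule. The AIBP-KO library held 80444279 UMIs and the WT library 80954991. After filtering, 8596 AIBP-KO cells (median 6596.5 UMIs) and 12371 WT cells (median 4170 UMIs) were kept. The libraries shared 43 cell barcodes, of which 32 and 39 were among the kept cells of the AIBP-KO and WT libraries. Cells were clustered without the 32 genes, and clusters were named from markers outside this list.

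3 classes formed the muscle lineage. Satellite cell/myoblast-like cells (1000 AIBP-KO, 1149 WT), the stem and dividing progenitors, came from 3 clusters with Pax7, Myf5 or Myod1 among their leading genes. Committed myocyte-like cells (429 AIBP-KO, 234 WT) were led by Myog, Mymx and Mymk, the last named encoding a membrane protein that lets myocytes fuse. Muscle fibre-like barcodes (272 AIBP-KO, 172 WT) were led by Cox6a2, Eno3 and Tcap. Whole fibres are too large for a droplet, and the fibre-like barcodes were shallow, with medians of 1011.5 UMIs in AIBP-KO and 1021.5 UMIs in WT. The nuclear RNA Malat1 made up under 0.1% of UMIs in 80.1% of AIBP-KO (95% interval 74.9 to 84.7%) and 60.5% of WT (52.7 to 67.8%) fibre-like barcodes, against 3.73% and 5.13% of committed myocyte-like cells. Only 2 AIBP-KO fibre-like barcodes exceeded 10000 UMIs and held 7.39% of that class's UMIs, whereas 13 WT barcodes did and held 48.8%. The part of depth and of nuclear RNA in the ratios below was not tested, and the fibre-like values that the results turn on are also given without those deep barcodes.

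In muscle, myosin heavy chains of the thick filament pull on actin of the thin filament, and troponin and tropomyosin gate that pull when calcium rises. A regenerating fibre starts with embryonic and neonatal heavy chains, cardiac actin and cardiac or slow troponins, and replaces them with adult fast or slow forms as it matures. The genes therefore serve as a record of fibre age as well as of fibre type.

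The fast and developmental heavy chain genes lie in a row on chromosome 11 in the order Myh3, Myh2, Myh1, Myh4 and Myh8, all on the plus strand. RefSeq promoters on GRCm38.p6, 250 bases before to 50 after the transcription start, were found for 27 of the 32 genes (33 start sites). The 6 below are those of the heavy chain and actin genes whose balance is followed here and of the fast light chain Mylpf. Capitals mark CANNTG, the E-box core that myogenic factors such as MyoD and myogenin bind, and the TATA sequence TATAAA on either strand. Each is written 5′ to 3′ on the gene's strand. The windows are chr11:67078050-67078349 (+) for Myh3, chr11:67276874-67277173 (+) for Myh8, chr11:67237562-67237861 (+) for Myh4, chr2:114052826-114053125 (-) for Actc1, chr8:123894726-123895025 (-) for Acta1 and chr7:127211358-127211657 (+) for Mylpf.
Myh3: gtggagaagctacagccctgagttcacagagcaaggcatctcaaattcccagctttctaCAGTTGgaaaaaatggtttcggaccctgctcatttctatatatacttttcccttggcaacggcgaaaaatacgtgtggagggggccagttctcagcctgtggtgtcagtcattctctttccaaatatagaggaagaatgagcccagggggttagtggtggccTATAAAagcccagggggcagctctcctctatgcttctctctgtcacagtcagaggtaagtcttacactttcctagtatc
Myh8: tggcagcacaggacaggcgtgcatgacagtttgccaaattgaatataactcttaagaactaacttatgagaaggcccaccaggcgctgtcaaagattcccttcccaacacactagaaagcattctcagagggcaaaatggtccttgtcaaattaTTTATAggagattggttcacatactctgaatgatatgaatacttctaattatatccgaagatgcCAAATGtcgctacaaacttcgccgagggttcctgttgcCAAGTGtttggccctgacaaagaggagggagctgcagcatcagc
Myh4: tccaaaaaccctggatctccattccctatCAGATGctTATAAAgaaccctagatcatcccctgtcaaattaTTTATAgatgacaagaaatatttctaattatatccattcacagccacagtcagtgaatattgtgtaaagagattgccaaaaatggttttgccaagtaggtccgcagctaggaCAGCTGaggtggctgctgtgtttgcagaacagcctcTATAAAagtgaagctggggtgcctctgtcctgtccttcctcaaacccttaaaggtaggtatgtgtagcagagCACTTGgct
Actc1: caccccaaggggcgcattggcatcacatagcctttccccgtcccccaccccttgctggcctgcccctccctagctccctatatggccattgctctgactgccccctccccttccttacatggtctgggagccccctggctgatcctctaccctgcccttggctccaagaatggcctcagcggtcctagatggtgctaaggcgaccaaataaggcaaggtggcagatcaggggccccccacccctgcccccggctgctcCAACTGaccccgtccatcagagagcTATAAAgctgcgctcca
Acta1: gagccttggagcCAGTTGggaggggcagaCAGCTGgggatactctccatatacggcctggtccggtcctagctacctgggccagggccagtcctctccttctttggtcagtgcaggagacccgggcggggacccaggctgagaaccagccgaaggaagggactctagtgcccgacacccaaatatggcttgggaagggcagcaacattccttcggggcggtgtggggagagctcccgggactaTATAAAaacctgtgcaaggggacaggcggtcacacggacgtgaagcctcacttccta
Mylpf: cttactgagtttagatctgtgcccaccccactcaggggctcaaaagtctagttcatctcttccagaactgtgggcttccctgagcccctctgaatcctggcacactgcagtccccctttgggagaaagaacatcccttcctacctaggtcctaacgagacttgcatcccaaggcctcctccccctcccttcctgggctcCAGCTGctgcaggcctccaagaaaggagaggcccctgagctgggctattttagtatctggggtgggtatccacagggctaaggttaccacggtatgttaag
The palindromic form CAGCTG, which is contained in CANNTG, was present in 15 of the 33 windows (45.5%), among them Myh4, Acta1 and Mylpf but not Myh3, Myh8 or Actc1, against 16.3% of 32851 promoter windows of the same length. CANNTG in any form was in 29 of 33 (87.9%) against 72.3% of all, CACCTG on either strand in 10 (30.3%) against 20.2%, and TATAAA on either strand in 9 (27.3%) against 13.6%. These are matches of letters and do not show binding.

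From progenitor to fibre, the share of UMIs on the 32 genes climbed in both libraries. It was 0.167% in AIBP-KO and 0.184% in WT satellite cell/myoblast-like cells, 0.967% and 1.504% in committed myocyte-like cells, and 31.3% and 21.4% in fibre-like barcodes. Single committed myocyte-like cells ranged from 0 to 13.9985% in AIBP-KO, with a median of 0.383%, and from 0 to 10.6% in WT, with a median of 0.674%. Single fibre-like barcodes lay between 5.26% and 44.8% in AIBP-KO (median 32.6%) and between 4.41% and 36.3% in WT (median 23.9%). Of the 32 genes, 25 in AIBP-KO and 27 in WT had their highest level in fibre-like barcodes. Myh3, Tnnt2, Tnni1 and Tnnc1 were highest in committed myocyte-like cells of both libraries. Set against fibre-like barcodes of at most 10000 UMIs, Tnnt2 in committed cells was 13.4 times as high in AIBP-KO and 10.8 times in WT, and Myh3 7.11 and 18.2 times. Against all fibre-like barcodes these were 13.9 and 5.36 times for Tnnt2 and 7.68 and 1.70 times for Myh3, and 58 of the 63 WT fibre-like Myh3 UMIs were in 2 barcodes. Ttn was highest in committed cells of AIBP-KO, and in WT it was highest in fibre-like barcodes only with those 2 barcodes (2442 CPM, and 1196 CPM without them, against 1575 CPM in committed cells). Neb was highest in committed cells of AIBP-KO, at 238 CPM against 201 CPM in fibre-like barcodes, and Actc1 in those of WT, at 2519 CPM against 2389 CPM, but in WT fibre-like barcodes of at most 10000 UMIs Actc1 reached 2850 CPM.

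**Figure D1:**
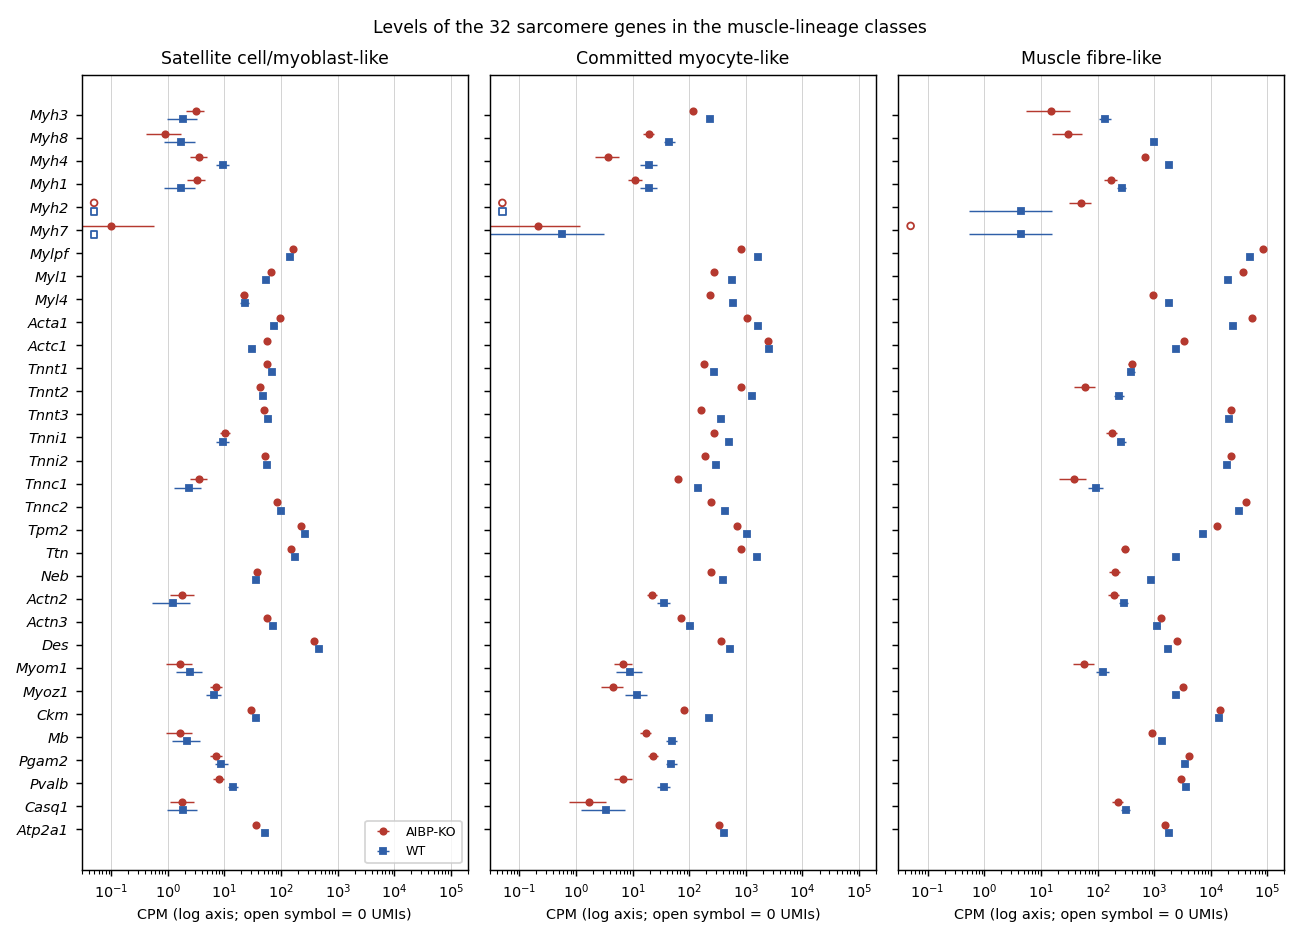
Level of each gene in CPM (log axis) in the 3 muscle-lineage classes, with AIBP-KO as red circles above WT as blue squares; bars are exact Poisson 95% intervals and open symbols mark 0 UMIs. In committed myocyte-like cells 28 of 29 measured genes are at least 20% lower in AIBP-KO, and the fibre-like level of Mylpf is 102 times the committed one in AIBP-KO and 29.6 times in WT.

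In committed myocyte-like cells the contractile program was lower in the AIBP-KO library almost throughout. A gene was measured where it reached 5 CPM in either library, and called where it was at least 25% higher or at least 20% lower, with 0.5 UMI added to each count for the call and for log2 ratios. Of 29 measured genes, 28 were lower and 0 higher in AIBP-KO, against 35.1% lower and 17.5% higher among all 9771 measured genes of the class. Of the 28, Myh4 and Myoz1 reached 5 CPM in WT alone, so they were measured only through the library where they were higher. For 27 of the 29 the 95% interval of the ratio lay below 1, against 21.0% of all genes. Intervals narrow as UMIs rise, and that share of all genes is not matched for level. The median log2 ratio of the 29 was -0.86, and that of all measured genes was -0.13. The exception was Actc1, cardiac actin, the first actin of the new fibre, at 2504 CPM in AIBP-KO and 2519 CPM in WT (ratio 0.994, 0.960 to 1.03). In committed cells of at most 10000 UMIs it was no exception, at 1413 CPM in AIBP-KO and 2667 CPM in WT (0.530, 0.5004 to 0.561).

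Myog, Mymk and Mymx, which lead the class, did not share this shift over all its cells. The class was picked out by such leading genes, so their near-equal levels cannot show that commitment was equal in both libraries. These genes were chosen after their values were seen, and their levels are not given at matched depth. Myog, the transcription factor of terminal differentiation, was at 4748 CPM in AIBP-KO and 4353 CPM in WT (ratio 1.09), Mymk at 578 and 537 CPM (1.08), and the fusion peptide gene Mymx at 538 and 601 CPM (0.895). The AIBP-KO cells were deeper, with a median of 9369 UMIs against 6562 in WT. With committed cells over 10000 UMIs left out (234 AIBP-KO and 179 WT cells kept), 27 of the 28 lower genes were lower, Actc1 joined them, and the median log2 ratio of the 29 was -1.99. The other of the 28, Myh1, was then higher in AIBP-KO from 18 and 4 UMIs (2.81, 0.925 to 11.4). Of all genes 34.5% were lower and 23.0% higher there. With cells thinned to 1000 UMIs 25 of the 28 were lower and 1, Myh1, was higher. Thinned values, here and below, leave out cells under 1000 UMIs. When cells were instead gated by their UMIs on Myog, Mymk and Mymx, 23 of the 28 were lower.

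Of the thick filament, Myh3, the embryonic heavy chain, had 540 UMIs or 116 CPM in AIBP-KO, against 412 UMIs or 233 CPM in WT (ratio 0.496, 0.436 to 0.566). Myh8, the neonatal heavy chain, was at 19.1 CPM in AIBP-KO and 44.8 CPM in WT (ratio 0.427, 0.312 to 0.585). The adult fast chain Myh4 (type 2B) was at 3.65 CPM in AIBP-KO and 19.3 CPM in WT, and its AIBP-KO level was close to the 3.53 CPM found over all classes outside the muscle lineage of that library. Myh1 (type 2X) was at 10.9 and 19.3 CPM, Myh2 (type 2A) had no UMI in either library, and Myh7 (slow) had 1 UMI in each. The light chains stiffen and tune the myosin neck. Myl4, the embryonic essential light chain, was at 236 CPM in AIBP-KO and 599 CPM in WT (ratio 0.394, 0.362 to 0.430). Its adult counterpart Myl1 was at 276 and 562 CPM (0.491), and the fast regulatory light chain Mylpf at 826 and 1635 CPM (0.505).

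Of the thin filament, the skeletal actin Acta1 was at 1027 CPM in AIBP-KO and 1612 CPM in WT (ratio 0.637, 0.608 to 0.668). Tnnt2, the cardiac troponin T of young fibres, which anchors troponin on tropomyosin, was at 837 and 1290 CPM (0.649), slow Tnnt1 at 179 and 275 CPM (0.650), and fast Tnnt3 at 164 and 367 CPM (0.445). The inhibitory subunits Tnni1 (slow) and Tnni2 (fast) had ratios of 0.551 and 0.643, and the calcium-binding subunits Tnnc1 (slow and cardiac) and Tnnc2 (fast) 0.447 and 0.565. Tpm2, beta-tropomyosin, was at 695 CPM in AIBP-KO and 1068 CPM in WT (0.651). Within each troponin family, then, developmental or slow and adult fast forms were both lower.

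Of the scaffold, Ttn, which encodes titin, the spring and ruler of the sarcomere, was at 837 CPM in AIBP-KO and 1575 CPM in WT (ratio 0.531, 0.506 to 0.558). Neb (nebulin, the thin filament ruler) was at 238 and 396 CPM (0.602), and Des, the intermediate filament that ties neighbouring sarcomeres together, at 368 and 523 CPM (0.703). The Z-disc crosslinkers Actn2 and Actn3 had ratios of 0.629 and 0.707, and the Z-disc protein Myoz1 0.379. Myom1 of the M-band had 32 and 16 UMIs, and its interval (0.404 to 1.48) included 1. Of the energy genes, Ckm, the muscle creatine kinase, was at 80.3 CPM in AIBP-KO and 220 CPM in WT (0.365), Mb (myoglobin) at 17.2 and 49.3 CPM (0.348) and Pgam2, a glycolytic mutase, at 23.0 and 48.2 CPM (0.477). Of the calcium genes, Atp2a1, the pump that returns calcium to its store, had a ratio of 0.786, and the cytosolic buffer Pvalb was at 6.87 and 35.7 CPM (0.192, 0.122 to 0.299). Casq1, which holds calcium in the store, was below 5 CPM in both libraries. The lowest ratios thus stood at adult fast genes of few UMIs, Myh4 and Pvalb, and the highest at Actc1 and Atp2a1. Myh4, like Myoz1, was measured only through its WT level. In AIBP-KO Pvalb (6.87 CPM) and Myoz1 (4.51 CPM) were below their levels over all classes outside the muscle lineage, 7.48 and 7.18 CPM. In WT Pvalb was at 3.45 and Myoz1 at 1.92 times that level. Ckm and Pgam2 in AIBP-KO were at 2.17 and 2.26 times theirs.

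**Figure D2:**
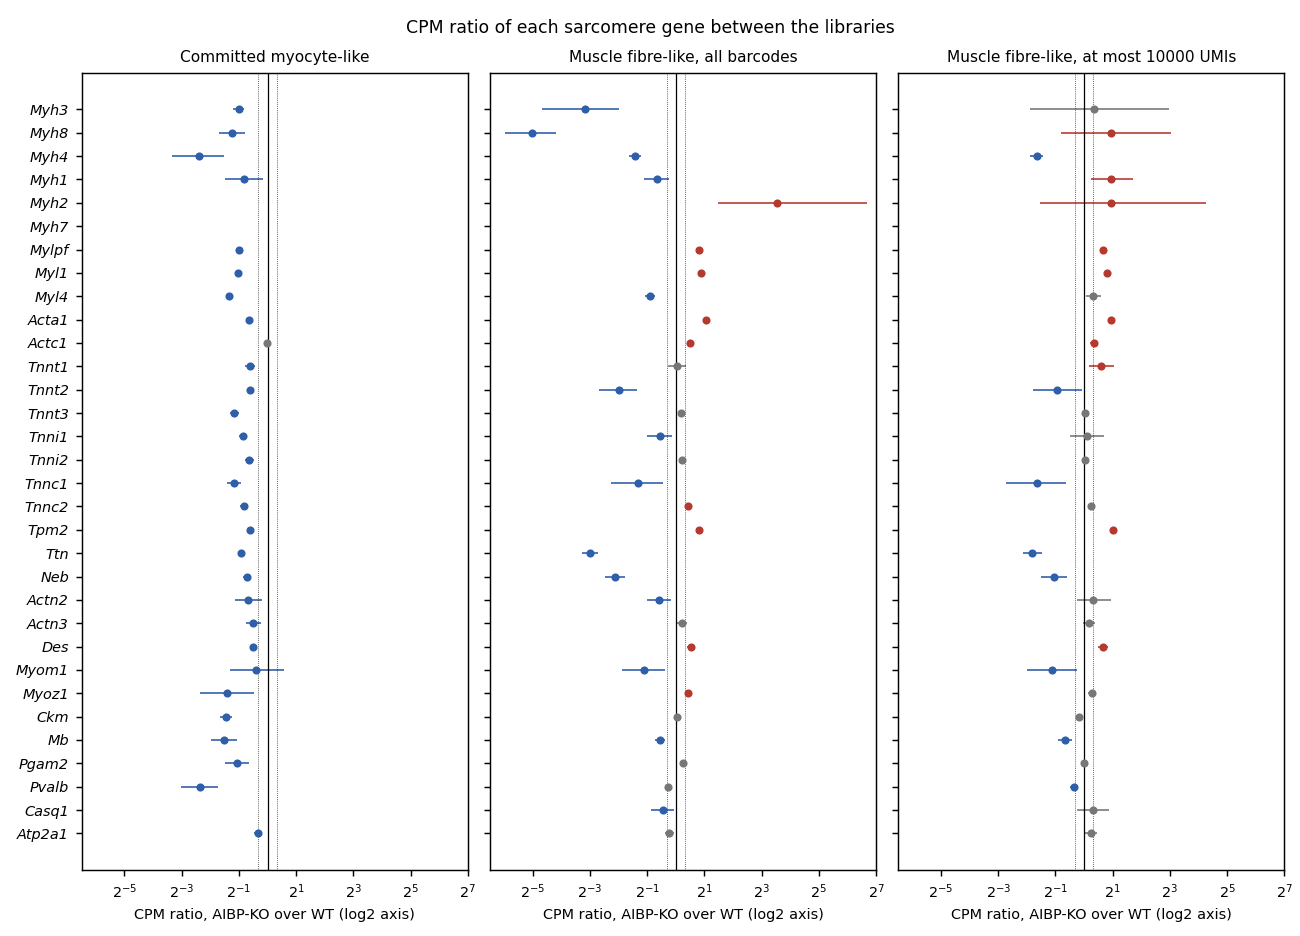
CPM ratio of each gene, AIBP-KO over WT (log2 axis), in committed myocyte-like cells, in all fibre-like barcodes and in those of at most 10000 UMIs; bars are exact 95% intervals, red marks at least 25% higher, blue at least 20% lower, grey between, and genes under 5 CPM or at 0 in AIBP-KO are not drawn. The committed panel lies left of 1, with Actc1 next to it at 0.994, and several fibre-like values, among them Myh8, cross 1 once the deep barcodes are left out.

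The same direction was seen in the share of cells with a UMI at equal depth. After thinning to 1000 UMIs, 25.6% of AIBP-KO and 49.1% of WT committed myocyte-like cells had a Tnnt2 UMI, against 1.04% and 0.832% of macrophage-like cells, which should lack it. Without thinning the shares were 52.2% and 72.6%. For Ttn the thinned shares were 29.4% and 53.4% (macrophage-like 0.899% and 1.22%), and for Myh3 5.41% (3.46 to 8.01%) and 9.05% (5.69 to 13.5%), whose intervals overlap. For Actc1 they were 56.5% and 65.5%, against 3.67% and 2.02% of macrophage-like cells. Myosin was sparse cell by cell: 93 AIBP-KO and 52 WT committed cells had developmental heavy chain UMIs alone, 30 and 12 adult fast alone, 21 and 14 both, and 285 and 156 neither.

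Isoform balance was compared as a share of the UMIs of a family, which does not depend on the class total. Developmental heavy chains (Myh3 and Myh8) made up 90.1% of heavy chain UMIs in AIBP-KO (629 of 698, 87.7 to 92.2%) and 87.7% in WT (491 of 560, 84.7 to 90.3%) committed myocyte-like cells. The difference of 2.44 points had an interval of -1.03 to 6.03, so a difference was not detectable in these sums, and its sign changed with the setting. As a mean over cells the share was 73.8% in AIBP-KO and 78.4% in WT, and after thinning 80.8% and 91.1%. Without committed cells over 10000 UMIs it was 66.7% in AIBP-KO and 84.6% in WT, a difference of -17.9 points. Actc1 made up 70.9% of sarcomeric actin UMIs in AIBP-KO and 61.0% in WT, 9.93 points more (8.62 to 11.3). It was 2.74 points more as a mean over cells and 13.3 points more without committed cells over 10000 UMIs. Tnnt2 made up 71.0% of troponin T in AIBP-KO and 66.8% in WT, but as a mean over cells its share was 11.2 points lower in AIBP-KO (56.0% and 67.2%). Other developmental or slow forms had lower shares in AIBP-KO: Myl4 46.1% and 51.6% of essential light chain, Tnni1 59.5% and 63.2% of troponin I, and Tnnc1 20.6% and 24.7% of troponin C. The shares of Tnni1 and Tnnc1 turned round with the setting: without committed cells over 10000 UMIs they were 12.4 and 1.37 points higher in AIBP-KO, and with free RNA subtracted 0.0447 and 0.139 points higher. Without those deep cells Tnnt2 was 1.27 points lower in AIBP-KO and the Myl4 difference was -0.24 points, against -5.46 points in all cells.

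**Figure D3:**
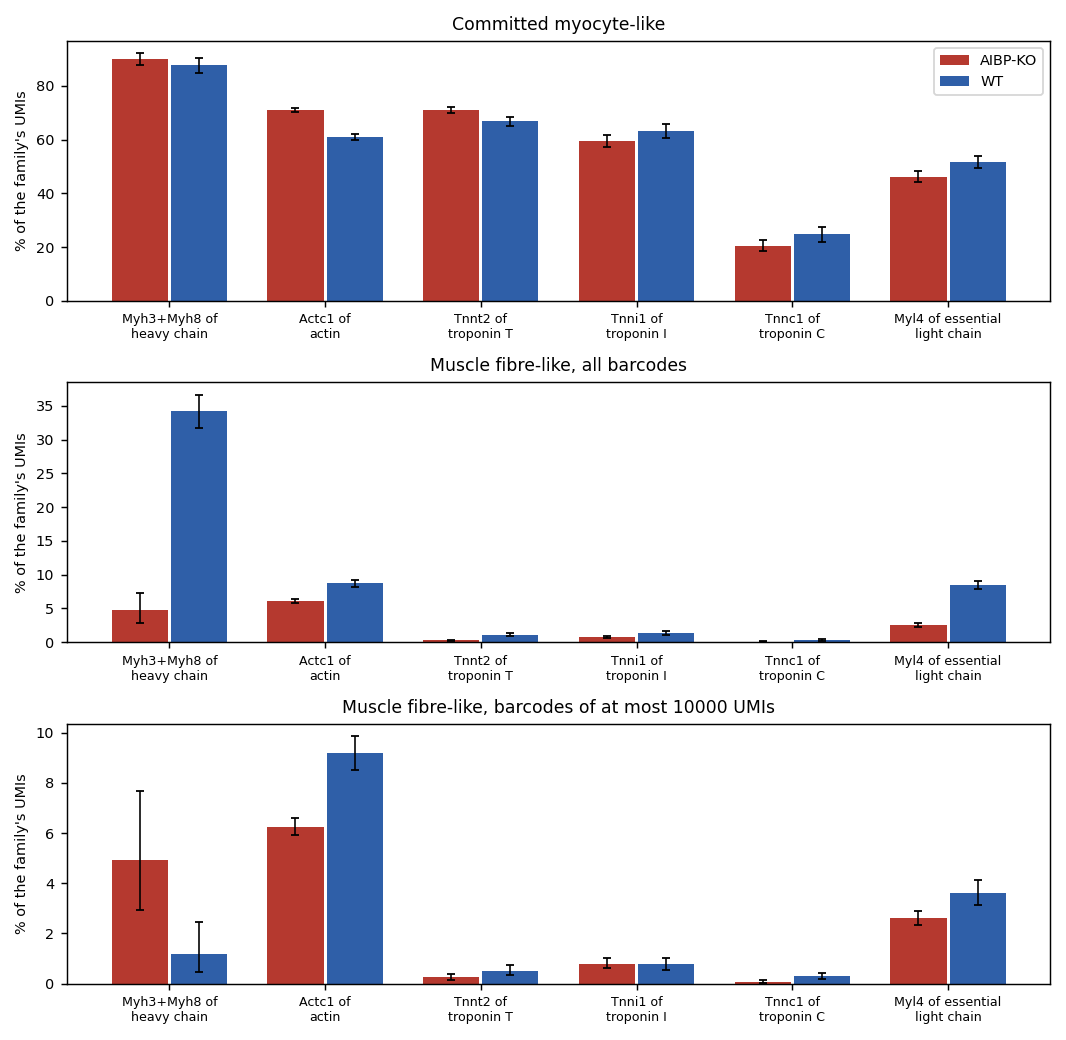
Share of a family's UMIs on its developmental or slow form (percent), with AIBP-KO left of WT, in committed myocyte-like cells, all fibre-like barcodes and fibre-like barcodes of at most 10000 UMIs; error bars are exact 95% binomial intervals and the 3 vertical axes differ. Developmental heavy chain was 4.71% in AIBP-KO and 34.2% in WT over all fibre-like barcodes, and 4.93% in AIBP-KO and 1.20% in WT without the deep ones.

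Fibre-like barcodes carried mostly adult fast genes in both libraries. Fast troponins Tnnt3, Tnni2 and Tnnc2 and light chains Mylpf and Myl1 were found in over 99% of the barcodes of both libraries, and Tnnt3 made up 98.0% of troponin T in AIBP-KO and 97.0% in WT. Of 31 measured genes, 9 were higher and 14 lower in AIBP-KO, against 16.5% higher and 60.7% lower among all 9113 measured genes. The 95% interval lay above 1 for 13 and below 1 for 16, against 2.11% and 16.3% of all. Intervals narrow as UMIs rise, and these shares of all genes are not matched for level. Counts of intervals therefore do not measure the size of a difference. At 5 CPM a gene here rests on 2 UMIs. Without barcodes over 10000 UMIs, 10 were higher and 9 lower of 32, against 20.2% and 55.9% of all genes, and the median log2 ratio was 0.24 for the 32 and -0.56 for all. That count holds genes of few UMIs: Myh2 (6 and 2) and Myh8 (12 and 4) among the higher, and Myh7 (0 and 2) among the lower.

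Skeletal and cardiac actin, the fast light chains, beta-tropomyosin and desmin were higher in AIBP-KO with and without the deep barcodes. Acta1 was at 52592 CPM in AIBP-KO and 25095 CPM in WT (ratio 2.096, 2.05 to 2.14), and at a ratio of 1.92 without deep barcodes. Myl1 was at 36974 and 19851 CPM (1.86, and 1.75 without), Mylpf at 84340 and 48402 CPM (1.74, and 1.58), Tpm2 at 12857 and 7357 CPM (1.75, and 1.99), and Des at 2529 and 1736 CPM (1.46, and 1.57). Actc1 was at 3402 CPM in AIBP-KO and 2389 CPM in WT (1.42, and 1.27). Tnnc2 and Myoz1 were higher with them (1.35 and 1.34) but within the limits without them (1.18 and 1.20). Myh2 had 20 UMIs in AIBP-KO, 14 of them in 1 barcode, and 2 in WT (11.5, 2.80 to 102), but 6 and 2 without deep barcodes (1.91, 0.341 to 19.3). Other fast genes of high counts were not called: Tnnt3 had a ratio of 1.12, Tnni2 1.17, Ckm 1.03 and Pgam2 1.19. Without deep barcodes these were 1.01, 1.03, 0.878 (0.843 to 0.914) and 1.00.

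Titin, nebulin and Myh4 were lower in AIBP-KO with and without the deep barcodes, and several developmental or slow genes were lower over all barcodes. Without deep barcodes Tnnt2 (ratio 0.522) and Tnnc1 stayed lower, but Myh3 (1.27), Myh8 (1.91), Myl4 (1.248) and Tnni1 (1.07) did not. Ttn was at 307 CPM in AIBP-KO and 2442 CPM in WT (ratio 0.126, 0.103 to 0.152), and Neb at 201 and 872 CPM (0.231). Without deep barcodes Ttn was at 307 and 1072 CPM (0.286) and Neb at 201 and 419 CPM (0.480). Myh4 was at 694 CPM in AIBP-KO and 1867 CPM in WT (0.372), and at 744 and 2354 CPM without deep barcodes (0.316). It was present in 44.5% of AIBP-KO and 71.5% of WT fibre-like barcodes, and in 41.0% and 67.8% after thinning. Mb had a ratio of 0.681 and Tnnc1 0.402, and both were lower without deep barcodes too (0.630 and 0.318). Myom1 had ratios of 0.464 with and 0.460 without them. Myh7 had 0 UMIs in AIBP-KO and 2 in WT, and no fold is given.

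The developmental heavy chains of the WT fibre-like class came from very few barcodes. Myh8 had 12 UMIs in AIBP-KO, at most 2 in a barcode, and 447 in WT, of which 246 and 158 were in 2 barcodes. Those 2 WT barcodes also held 36 and 22 of the 63 WT Myh3 UMIs, 296 and 170 of the 836 Myl4 UMIs and 328 and 285 of the 1117 Ttn UMIs. They had 21998 and 14103 UMIs, 2.09% and 1.99% Malat1 and 4.93% and 4.01% mitochondrial UMIs, whereas the AIBP-KO barcode of most Myh8 had 7193 UMIs, 1 of them Malat1. Developmental heavy chain was 4.71% of heavy chain UMIs in AIBP-KO (18 of 382) and 34.2% in WT (510 of 1492), and 5.09% in WT without the 2 barcodes, which left 10 of 31 genes higher and 9 lower (18.4% and 59.7% of all genes). The difference was then -0.38 points (-2.72 to 2.51), and without all deep barcodes it was 3.73 points higher in AIBP-KO (1.55 to 6.53, from 18 of 365 and 7 of 584 UMIs). The summed difference of -29.5 points thus rests on 2 barcodes. The ratio of Myh8 was 0.031 with all barcodes, and 1.91 (0.578 to 8.12) without the deep ones, that of Myh3 0.110 and 1.27 (0.272 to 7.86).

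Counted by barcode, adult fast myosin was the common form in fibre-like barcodes of both libraries. In AIBP-KO 132 of 272 barcodes (48.5%) had adult fast heavy chain UMIs alone, 8 developmental alone, 7 both and 125 neither. In WT 119 of 172 (69.2%) had adult fast alone, 1 developmental alone, 13 both and 39 neither. The other developmental forms were minor: Actc1 was 6.08% of actin UMIs in AIBP-KO and 8.69% in WT (6.26% and 9.18% without deep barcodes), Myl4 2.57% and 8.43% of essential light chain (2.61% and 3.61%), Tnnt2 0.256% and 1.13% of troponin T (0.259% and 0.502%), and Tnni1 0.780% and 1.33% of troponin I (0.797% and 0.767%).

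**Figure D4:**
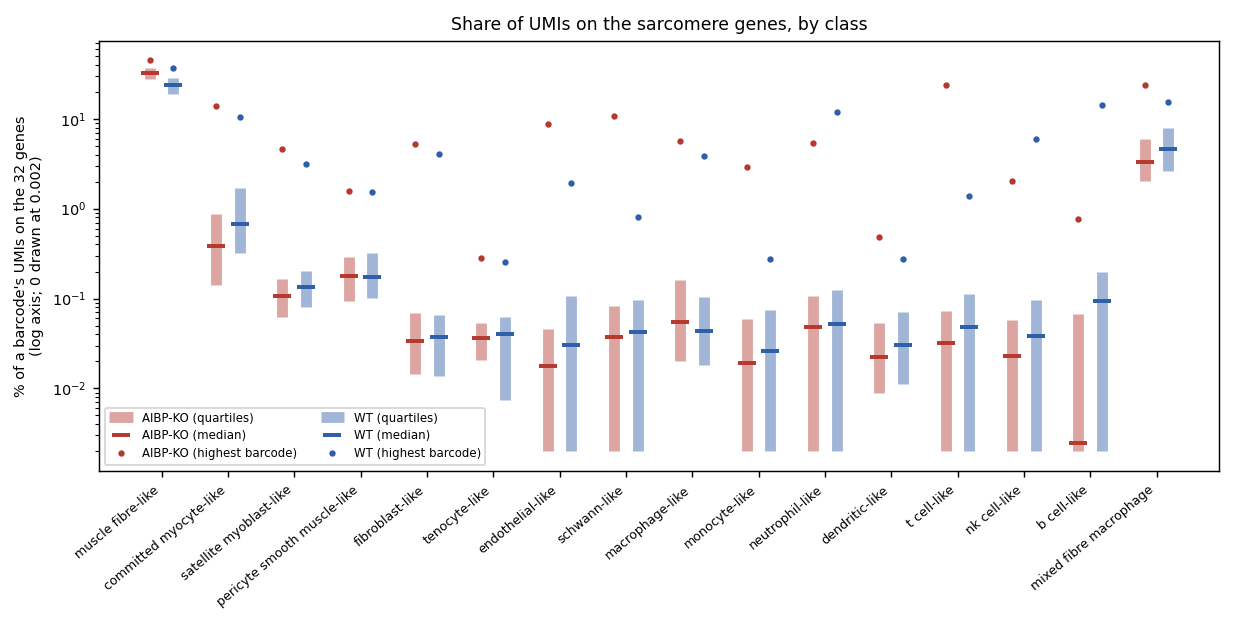
Share of a barcode's UMIs on the 32 genes (percent, log axis) in each class, with AIBP-KO left of WT; thick bars span the quartiles, dashes are medians and dots the highest barcode, with 0 drawn at the foot of the axis. Fibre-like medians are 32.6% in AIBP-KO and 23.9% in WT, committed myocyte-like medians 0.383% and 0.674%, and medians outside the muscle lineage reach at most 0.177% in AIBP-KO and 0.175% in WT.

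In satellite cell/myoblast-like cells most of the genes were near their level outside the muscle lineage, and 11 in AIBP-KO and 10 in WT reached 2 times that level. Of 22 measured, 2 were higher and 5 lower in AIBP-KO, against 18.7% and 26.0% of all 10245 measured genes. Actc1 was at 57.1 CPM in AIBP-KO and 30.2 CPM in WT (ratio 1.89, 1.61 to 2.24) and Acta1 at 96.9 and 76.4 CPM (1.27, 1.14 to 1.42). Acta1 was not above its level outside the muscle lineage, 126 CPM in AIBP-KO and 77.0 CPM in WT. Actc1 stood at 2.50 and 2.21 times its level there, which was 22.8 CPM in AIBP-KO and 13.6 CPM in WT. With free RNA subtracted 1 gene was higher. Des, expressed already in progenitors, was at 389 and 473 CPM (0.823), and Ttn at 152 and 174 CPM (0.873). The cluster with cell cycle genes such as Top2a among its leading genes was the largest of the class in AIBP-KO (359 of 1000 cells) and the smallest in WT (136 of 1149), and Myog was at 138 CPM in AIBP-KO and 66.6 CPM in WT. The part of this make-up in the ratios was not tested. Of the other lists, 0 of 12 measured sarcomere genes were higher and 3 lower, 2 and 5 of 9 assembly genes, 3 and 3 of 12 calcium genes, 2 and 5 of 11 energy genes and 6 and 8 of 24 regulators. Cryab had a ratio of 1.57, Hsp90aa1, a chaperone that folds myosin, 1.29, Gapdh 1.35 and Myod1 2.19. Tpm1 was at 0.804 and Atp2a2, the slow calcium pump, at 0.712. Myod1 was among the markers that named this class.

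Further genes of the sarcomere were lower with the 32 in committed myocyte-like cells. Of 23 measured other sarcomere genes 18 were lower and 1 higher in AIBP-KO (median log2 ratio -0.88), of 16 assembly genes 11 and 1 (-0.64), of 17 other calcium handling genes 9 and 1 (-0.44), of 15 other energy genes 9 and 3 (-0.54) and of 24 myogenic regulators 10 and 3 (-0.24), beside -0.13 for all genes, of which 35.1% were lower and 17.5% higher. The lower share was 78.3% of other sarcomere genes, and for the regulators, at 41.7%, it was near that of all genes. Some of these genes took part in the clustering, unlike the 32. Some were also markers that named the clusters, among them Ldb3, Trdn, Cox6a2, Ryr1, Myod1, Myf5, Mymk and Cdkn1c. The regulator list also holds the markers Pax7, Myog and Mymx. Levels of such genes partly follow from how each muscle-lineage class was picked, and the list counts include them. The Z-disc gene Ldb3 had a ratio of 0.267, Csrp3, a Z-disc LIM protein, 0.269, and Tpm1, alpha-tropomyosin and the gene of most UMIs in its list, 0.755. Sln (sarcolipin, an inhibitor of the calcium pump) was at 23.4 CPM in AIBP-KO and 104 CPM in WT (0.226), and Trdn (triadin of the calcium release site) at 6.87 and 30.0 CPM (0.229), while Bin1, which shapes transverse tubules, was at 1.03. Of the assembly genes, Klhl40, which stabilises thin filament proteins, had a ratio of 0.404 and Cavin4, a muscle caveolae protein, 0.403, whereas the small chaperone Cryab was at 795 CPM in AIBP-KO and 481 CPM in WT (1.65, 1.53 to 1.78). The oxidase subunit Cox6a2 had 0.379, adenylate kinase Ak1 0.514 and the glycolytic enzyme Gapdh 1.31. Mef2c, a transcription factor of muscle structural genes, was at 56.9 CPM in AIBP-KO and 144 CPM in WT (0.395, 0.331 to 0.471), Myf5 had 0.436 and the cell cycle inhibitor Cdkn1c 1.26.

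In fibre-like barcodes the same lists had 8 higher and 20 lower of 32 other sarcomere genes, 3 and 13 of 17 assembly genes, 1 and 11 of 17 calcium genes, 2 and 8 of 20 energy genes and 1 and 21 of 25 regulators. Of all genes 16.5% were higher and 60.7% lower, and the lower shares of other sarcomere genes (62.5%) and calcium genes (64.7%) were near that. Their medians were -0.51, -1.05, -0.46, -0.26 and -1.38, beside -0.64 for all genes. In barcodes of at most 10000 UMIs the counts were 6 and 17 of 31, 3 and 13 of 17, 5 and 8 of 17, 1 and 12 of 20 and 4 and 16 of 23, beside 20.2% and 55.9% of all genes. Tpm1 had a ratio of 1.32 (1.20 without deep barcodes), Gapdh 1.54 (1.34 without) and Cryab 1.33 (1.246 without). Slow-type Myl3 (45 and 5 UMIs) was at 10.4 (4.13 to 33.4), but at 1.40 (0.448 to 5.14) without deep barcodes. Myoz2 (134 and 25 UMIs), a Z-disc protein of slow fibres, was at 6.17 (4.00 to 9.87), and at 4.65 (2.75 to 8.40) without them. Ryr1, the calcium release channel, had 0.205 (0.376 without), the store protein Casq2 0.077 from 1 and 15 UMIs (0.106 without), and Sln turned round, at 0.630 with and 1.41 without them. Unc45b, a myosin chaperone, had 0.259 (0.318 without), Trim63, a ubiquitin ligase of fibre wasting, 0.192 (0.636), the kinase subunit Phka1 0.213 (0.167) and the glucose transporter Slc2a4 0.384 (0.477). Mef2c had 0.630 (0.645 without) and Mymk 0.203, but 0.848 from 4 and 3 UMIs without deep barcodes.

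Among the 5 genes most like Myh3 over 30 class and library sums, by the correlation of log2(CPM + 1), were Lmod2 (Pearson r 0.87), Itgb6 (0.87), Bex1 (0.86) and Klhl40 (0.86). Those most like Myh4 were Myot (0.91), Tcap (0.87), Mettl21c (0.87), Sln (0.86) and Ccng1 (0.85). The sums of a library share its free RNA, and r is a description. Lmod2, an actin filament nucleator, was at 41.9 CPM in AIBP-KO and 41.4 CPM in WT committed myocyte-like cells, and Bex1 at 51.3 and 121 CPM. Tcap, which caps titin at the Z-disc, was at 1570 CPM in AIBP-KO and 2339 CPM in WT fibre-like barcodes, and Myot, a Z-disc protein, at 262 and 232 CPM.

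Outside the muscle lineage, transcripts of the 32 genes were found in every class. Summed over 12 classes the 32 genes were at 1062 CPM in AIBP-KO and 774 CPM in WT (ratio 1.37), and at 768 and 643 CPM without barcodes over 1% (1.19). In macrophage-like cells, which should not express them, they were at 1175 CPM in AIBP-KO and 769 CPM in WT. All 16 adult genes lay there within 2-fold of 1 ratio to their fibre-like level in AIBP-KO (median 0.346%), and 15 of 16 in WT (0.323%), the exception being Myh2 with 0 UMIs. Set against fibre-like barcodes of at most 10000 UMIs, 15 of 16 in AIBP-KO and 12 of 16 in WT did. Mylpf was at 292 CPM in AIBP-KO and 161 CPM in WT macrophage-like cells, and Acta1 at 182 and 91.2 CPM, each on that ratio. Most developmental and slow genes lay above it, but not Myh7, with 0 UMIs, nor Myh8 in WT, at 0.558 times the ratio (5.58 times without the 2 WT barcodes of most Myh8). Genes not tied to a stage lay above it too. Myom1 was at 23.9 times in AIBP-KO and 15.2 times in WT, and Des at 2.26 and 2.84. Ttn was at 7.58 and 1.35 times and Neb at 4.32 and 1.31. Tpm2 (1.19 and 1.59) and Actn2 (1.45 and 0.973) lay nearer to it. Tnnt2, at 9.70 and 7.15 CPM, stood at 46.4 and 9.21 times the ratio (46.2 and 21.6 without deep barcodes). Tnnc1, at 8.73 and 4.21 CPM, stood at 66.8 and 13.9 times (73.6 and 13.7). Tnnc1 overlaps Nisch on the opposite strand, and without the strand setting their reads cannot be told apart. Myh3 had 33 UMIs in AIBP-KO and 44 in WT macrophage-like cells (1.46 and 2.35 CPM). Committed myocyte-like cells held 116 CPM in AIBP-KO and 233 CPM in WT, which is 128 and 174 times its level over all classes outside the muscle lineage.

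**Figure D5:**
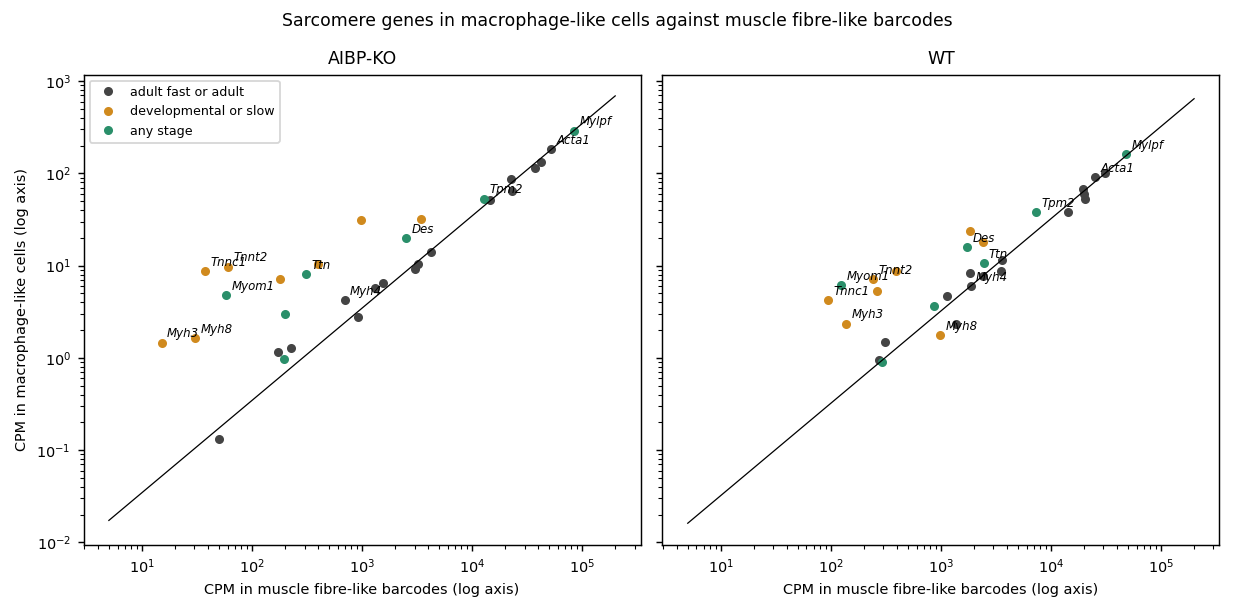
Level of each gene in macrophage-like cells against fibre-like barcodes (CPM, both axes log), AIBP-KO left and WT right; the line is the median ratio of the adult genes (0.346% in AIBP-KO, 0.323% in WT) and genes at 0 in either are not drawn. Adult genes follow the line, and Tnnc1, Tnnt2 and Myom1 lie above it in both libraries. Tnnc1 and Myom1 each overlap a gene on the opposite strand.

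A few of the 32 were expressed outside the lineage. Tpm2 was at 1721 CPM in AIBP-KO and 1607 CPM in WT pericyte/smooth muscle-like cells, where beta-tropomyosin is part of the contractile apparatus, and at 415 and 211 CPM in fibroblast-like cells. Des was at 228 and 372 CPM in pericyte/smooth muscle-like cells (ratio 0.611, 0.520 to 0.719) and Myom1 at 68.8 and 63.0 CPM. Myom1 overlaps Myl12a on the opposite strand. Without the strand setting, reads of these genes cannot be told apart, so expression of Myom1 there is not established. Actn2 was at 86.7 CPM (55 UMIs) in AIBP-KO and 33.5 CPM (16 UMIs) in WT T cell-like cells. That was 47.3 and 36.9 times the median ratio of the adult genes there to their fibre-like level. Committed myocyte-like cells had 22.1 CPM of Actn2 in AIBP-KO and 35.1 CPM in WT. Single barcodes of other classes were high, with up to 23.7% of UMIs on the 32 genes in an AIBP-KO T cell-like barcode and 14.3% in a WT B cell-like barcode. The class sums were 3463 CPM in AIBP-KO and 757 CPM in WT T cell-like cells, and 837 CPM in AIBP-KO and 5293 CPM in WT B cell-like cells. An unnamed cluster of 36 AIBP-KO and 57 WT barcodes held both fibre genes (4.76% and 5.76% of UMIs on the 32) and macrophage markers, and entered no class.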

How the data were processed

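The deposited values are raw counts of UMIs per gene and barcode, 1 10x matrix per genotype. The matrices are from Cell Ranger 5.0.0 per the file headers, whereas the submitters' processing notes name 2.1.1; genome build, annotation and strand setting are not stated. The 32 genes and all lists were chosen with earlier results of these data known. Barcodes under 200 genes (31 AIBP-KO, 49 WT) or over 10% mitochondrial UMIs (197, 149) and Scrublet doublets (568, 1466) were removed. Clustering (Python 3.11.15, scanpy 1.11.5, leidenalg 0.10.2) used 2000 variable genes without the 32 genes, 30 components, 15 neighbours and resolution 1.0, giving 33 clusters. UMIs were summed per class and library and scaled to CPM (UMIs per 1000000). Intervals (scipy 1.17.1) are exact Poisson for levels, exact conditional for ratios, Clopper-Pearson for shares and Newcombe for differences of shares. The ratio step was tested on simulated Poisson counts of class sums, the model its intervals assume, without variation among barcodes. That test checks the calculation only. Named genes were all 32, in each list the gene of most UMIs and the 2 of largest absolute log2 ratio among those of at least 20 CPM, and the 5 genes most correlated with Myh3 and with Myh4; Myog, Mymk, Mymx, Lmod2 and other values beside them were chosen after their values were seen. Some genes that this rule named are not reported here. In GENCODE vM21 16 of the 32 overlap a gene on the opposite strand, whose reads cannot be told apart without strand. Alternatives, 13 planned and 4 added after seeing the data, are given at the end.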

Additional observations from a re-analysis of the deposited data

Results flagged for a closer look

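7 genes were at least 25% higher in AIBP-KO in fibre-like barcodes and at least 20% lower in AIBP-KO in committed myocyte-like cells, 24.1% of the 29 measured in both, against 3.46% of all genes measured in both. The difference of their log2 ratios, fibre-like minus committed myocyte-like, was 1.79 for Mylpf, 1.92 for Myl1, 1.72 for Acta1, 1.26 for Tnnc2, 1.42 for Tpm2, 1.05 for Des and 1.83 for Myoz1. With 1 library per genotype this difference was not tested. Tnnc2 and Myoz1 were not called higher in fibre-like barcodes of at most 10000 UMIs, with ratios of 1.18 and 1.20.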

How the results depend on the processing

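No paired analysis was possible because each genotype has 1 library. Over 17 other settings, of which 4 were added after seeing the data, 23 to 28 of the 28 genes called lower in committed myocyte-like cells were lower there too wherever the setting gave a value. Those lost in at least 1 setting were Myh1, Myom1, Atp2a1, Des, Actn3, Myoz1, Tnnc2 and Tnni2, and Actc1 became lower (log2 ratio -0.92) without cells over 10000 UMIs; the median log2 ratio ran from -0.67 (cells gated by marker UMIs) to -1.99 (cells over 10000 UMIs left out). Of the values in the main comparisons, 114 stayed within the interval (for counts, within 1.5 times), 33 moved beyond it and 2 reversed, that is, changed sign where the interval (for a gene's ratio, the call) had excluded no difference. In all 5 of the shares and ratios among them changed sign, the other 3 being the developmental heavy chain share of committed cells, whose interval had included 0. Of the other values 681 stayed, 242 moved and 29 reversed. The cause of each change was not tested.

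In committed myocyte-like cells, 1 gene was at least 25% higher after thinning and 1 without cells over 10000 UMIs, Myh1 having a log2 ratio of 1.05 and 1.36 there. That of Actc1, -0.0088, was 0.016 with doublets kept, 0.042 at 500 genes, 0.11 gated and -0.22 both thinned and as a mean. The developmental heavy chain difference was -4.60 points as a mean over barcodes, -10.3 thinned and -17.9 without deep cells. That of Actc1 was 2.74 as a mean, 11.3 with free RNA subtracted, 7.14 gated and 13.3 without deep cells. Tnnt2 became -11.2 as a mean and -1.27 without deep cells, Tnni1 0.0447 with free RNA subtracted and 12.4 without deep cells, and Tnnc1 0.139 and 1.37.

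In fibre-like barcodes, 14 genes were higher when gated, and 9 lower when gated, without deep barcodes and without the 2 WT barcodes of most Myh8. The developmental heavy chain difference was 2.66 points as a mean over barcodes (6.91% in AIBP-KO, 4.26% in WT), -4.77 thinned, -17.5 gated, 3.73 without deep barcodes and -0.38 without the 2. That of Actc1 was -4.15 thinned and -1.84 gated, and that of Tnni1 0.0297 without deep barcodes. Log2 ratios of genes called higher or lower that changed sign were, as a mean over barcodes, Myh1 0.17, Myl4 0.0083, Actn2 0.21 and Casq1 0.24. Thinned, they were Myh3 0.17, Myh1 0.18, Actn2 0.12 and Casq1 0.42, and gated, Tnnc1 0.36. Without deep barcodes they were Myh3 0.24, Myh8 0.82, Myh1 0.93, Myl4 0.32, Tnni1 0.091, Actn2 0.32 and Casq1 0.29. Without the 2 barcodes they were Myh3 0.33, Myl4 0.15, Tnni1 0.10 and Actn2 0.012. Of uncalled genes, Ckm changed sign in 4 settings (lowest -0.21), Atp2a1 in 3 (highest 0.24), and Tnnt1 (-0.032, doublets kept) and Actn3 (-0.055, as a mean) in 1 each.

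In satellite cell/myoblast-like cells 1 gene was higher as a mean, 4 thinned and 1 with free RNA subtracted, and 9 were lower with the 32 genes in the clustering, 3 at resolution 0.5, 9 as a mean, 12 thinned and 9 with free RNA subtracted. The summed ratio outside the muscle lineage was 1.15 with doublets kept, 1.32 with the 32 in the clustering, 1.27 at resolution 0.5, 1.35 at 2.0, 1.50025 as a mean, 1.53 thinned and 1.19 without barcodes over 1%. Fibre-like values could not be had with at least 500 genes per barcode, satellite values with the gate, nor outside values with free RNA subtracted. Fibre-like counts of few UMIs and shallow barcodes limit all values of minor isoforms.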
